A study of Mus musculus with 9 samples.

Results

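A set of 10 genes that direct the formation of motile and multiple cilia were followed by bulk RNA-seq in adult neural stem cells (NSCs): Foxj1, Rfx1, Rfx2, Rfx3, Rfx4, Mcidas, Gmnc, Ccno, Trp73 and Myb. They were chosen by name, and all were found by their Ensembl identifiers among the 55704 genes of the table. The NSCs came from the subventricular zone (SVZ) of adult C57BL/6 mice aged 8 to 9 weeks, with 2 female and 2 male mice pooled for an isolation. The study has 3 groups with 3 libraries each. The bFGF/EGF-treated NSCs received bFGF and EGF and were collected at day 0. The bFGF/BMP4-treated NSCs received bFGF and BMP4, and the BMP4-treated NSCs received BMP4 without bFGF or EGF, and both were collected at day 6. Cells of these 2 groups had at least 3 passages and were plated on poly-ornithine and laminin with bFGF and EGF before the change of medium. Each factor was used at 20 ng/mL. The first group served as the control in both comparisons with it, but was collected at another time, so the medium and the time in culture cannot be told apart in a difference from them. The comparison of BMP4-treated with bFGF/BMP4-treated NSCs is matched in time and differs in bFGF alone. The labels do not say that the replicates were separate isolations, so p-values measure the spread between these libraries, which may be technical.

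A multiciliated cell, such as the ependymal cell that lines the brain ventricles, carries many motile cilia, whereas an SVZ neural stem cell carries a primary cilium. In the cascade that makes multiciliated cells, the geminin relatives Gmnc and Mcidas join the cell cycle factors E2F4 or E2F5 and their partner TFDP1 to turn on the genes below them, among them Trp73, Myb, Ccno and Foxj1. Myb and Ccno act in the amplification of centrioles, from which the basal bodies of the cilia are made, and Ccno is a cyclin rather than a DNA-binding factor. Foxj1, a forkhead factor, drives genes of the motile axoneme. The RFX factors bind the X-box in the promoters of ciliary genes, and of these Rfx2 and Rfx3 are the best known in ciliated cells, whereas Rfx4 is a factor of neural progenitors and astrocytes.

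The members differed widely in level in these NSCs. Foxj1 and the RFX genes were expressed in all 9 libraries, whereas Gmnc, Mcidas and Trp73, the genes above them, had at most 12 fragments in any library. Of the members, 7 had a mean of at least 0.1 FPKM (fragments per kilobase of gene, scaled to the size of the library) and were tested, and the other 3 did not pass this filter. A member was counted as changed where the Benjamini-Hochberg adjusted p of limma on log2(FPKM + 0.1) was at most 0.05 and the fold change was at least 2. In BMP4-treated compared with bFGF/BMP4-treated NSCs, Foxj1, Rfx2, Rfx4 and Ccno rose and none of the 7 fell, where 13.5% of all genes tested changed, 8.41% upwards and 5.14% downwards. In BMP4-treated compared with bFGF/EGF-treated NSCs, Foxj1 and Rfx2 rose and Rfx1 and Myb fell, where 36.6% of all genes changed, 21.3% upwards and 15.4% downwards. In bFGF/BMP4-treated compared with bFGF/EGF-treated NSCs, Rfx2 rose and Rfx1, Rfx4 and Myb fell, where 30.6% of all genes changed, 16.5% upwards and 14.1% downwards. The libraries of the groups did not overlap for 5 of the 7 members in each of these comparisons, beside 38.7%, 60.4% and 57.7% of all genes in the same order.

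**Figure D1:**
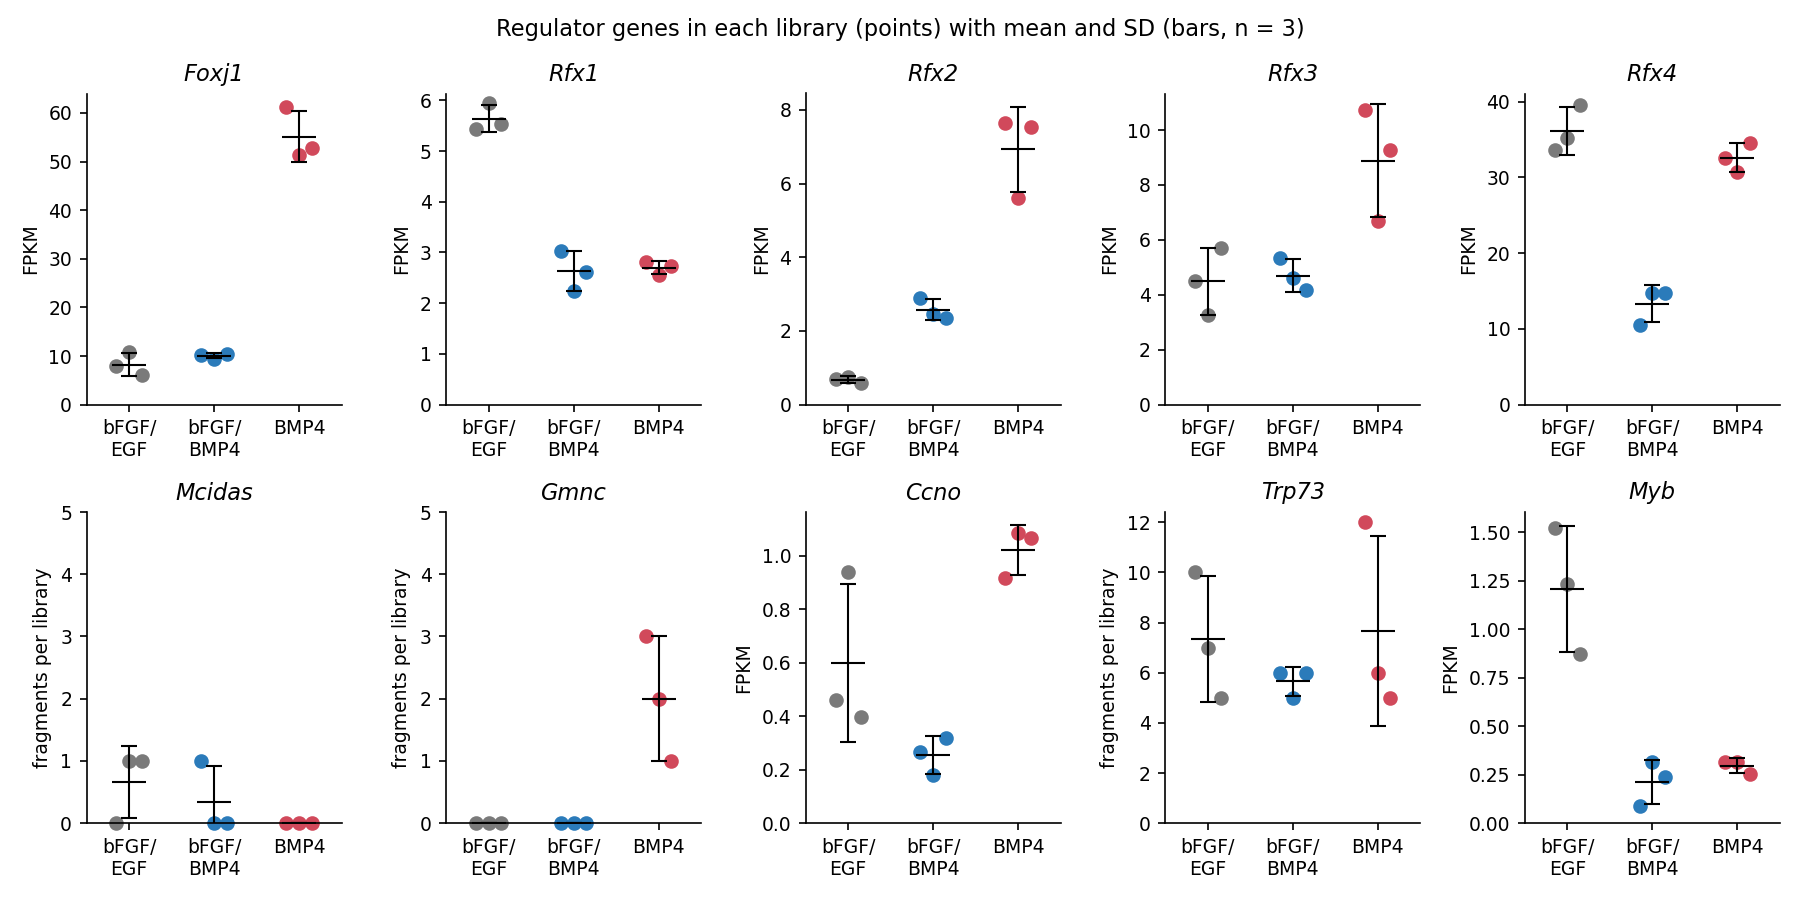
Level of each regulator in every library. Points are libraries, grey for the control (bFGF/EGF), blue for bFGF/BMP4 and red for BMP4, bars are the mean and SD (n = 3), and the vertical axis is FPKM except for Mcidas, Gmnc and Trp73, which are in fragments per library. Foxj1 and Rfx2 are highest in the BMP4 libraries, Rfx4 is lowest in the bFGF/BMP4 libraries, and Mcidas has at most 1 fragment in a library.

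The promoters of the 4 members that rose in the time-matched comparison are shown because the factors under study bind DNA at known motifs, which can be looked for in them. Each is the sequence before the annotated start site of the GENCODE canonical transcript in GRCm39, 5′ to 3′ on the strand of the gene, and ends where an annotated coding gene's exon begins. Foxj1 covers chr11:116226226-116226475 (minus strand), Rfx2 chr17:57138119-57138361 (minus strand), Rfx4 chr10:84591646-84591895 (plus strand) and Ccno chr13:113124065-113124314 (plus strand). Capitals mark the RFX core GTTGCC and, in Ccno, an X-box that contains it.
Foxj1: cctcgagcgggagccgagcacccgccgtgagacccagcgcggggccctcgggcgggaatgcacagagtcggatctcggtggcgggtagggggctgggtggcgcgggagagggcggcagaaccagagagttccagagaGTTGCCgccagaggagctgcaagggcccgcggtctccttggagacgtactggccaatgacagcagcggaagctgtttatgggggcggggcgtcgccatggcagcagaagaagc
Rfx2: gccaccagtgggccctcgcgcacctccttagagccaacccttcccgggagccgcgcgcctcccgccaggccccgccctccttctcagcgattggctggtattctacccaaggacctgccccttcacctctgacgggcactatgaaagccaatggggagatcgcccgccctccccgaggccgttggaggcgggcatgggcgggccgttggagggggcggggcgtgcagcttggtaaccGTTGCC
Rfx4: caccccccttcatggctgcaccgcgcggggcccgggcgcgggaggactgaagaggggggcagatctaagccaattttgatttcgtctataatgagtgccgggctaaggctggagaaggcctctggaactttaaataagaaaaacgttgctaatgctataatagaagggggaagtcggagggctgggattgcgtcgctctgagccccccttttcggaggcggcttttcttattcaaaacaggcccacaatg
Ccno: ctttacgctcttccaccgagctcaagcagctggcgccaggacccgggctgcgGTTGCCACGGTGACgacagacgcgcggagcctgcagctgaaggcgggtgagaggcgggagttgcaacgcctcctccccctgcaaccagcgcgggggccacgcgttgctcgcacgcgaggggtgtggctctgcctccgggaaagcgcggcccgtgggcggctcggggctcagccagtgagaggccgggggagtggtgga
The core GTTGCC lay 113 to 108 bases before the start site of Foxj1 and 13 to 8 bases before that of Rfx2. In Ccno the X-box GTTGCCACGGTGAC lay 198 to 185 bases before the start site, and in Rfx4 none of the motifs searched was found. The search covered both strands of the 250 bases before the start site of 21757 coding genes, of which 9.45% held GTTGCC and 0.988% an X-box. The other motifs searched were the forkhead site TGTTTAC, in 2.72% of these promoters, and the E2F site TTTCCCGC or TTTGGCGC, in 1.62%. Among the other members, Mcidas held a GTTGCC 121 to 116 bases and an E2F site 179 to 172 bases before its start site, and no match was found in Rfx1, Rfx3, Gmnc, Trp73 or Myb. The start sites used for Trp73 (chr4:154181630) and Gmnc (chr16:26786995) lie inside these genes, so the bases before their outer ends were not searched. These matches describe the letters of the windows and do not show that a factor binds there.

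The libraries held 15897315 to 17426460 fragments on genes, as rebuilt from the FPKM values, and no library stood apart from its group. Correlations of log2(FPKM + 0.1) across genes were 0.95 to 0.964 between libraries of a group and at most 0.915 between groups. Of the NSC markers, Sox2 was at 167 FPKM ± 36.2 (SD, n = 3) in the control, 137 ± 11.7 with bFGF/BMP4 and 137 ± 13.4 with BMP4. Nes, which encodes the intermediate filament nestin, was at 151, 3.55 and 15.8 FPKM in the same order, and Gfap, the filament of astrocytes and quiescent NSCs, at 0.0926, 19.4 and 2570. Since these are bulk libraries, a lower value can come from fewer cells of a type or from less RNA per cell, and these cannot be told apart.

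Gmnc, the geminin relative that acts first in the cascade (chr16:26732303-26810402, minus strand, in GRCm39), had no fragment in any bFGF/EGF or bFGF/BMP4 library. In the BMP4 libraries it had 3, 2 and 1 fragments. A count of 0 allows up to 3 fragments in a library, so all 9 values lie at or under this limit and no fold is given. In the BMP4 libraries 3 fragments of Gmnc corresponded to at most 0.0323 FPKM.

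Mcidas, which encodes multicilin, had 0, 1 and 1 fragments in the bFGF/EGF libraries, 1, 0 and 0 in the bFGF/BMP4 libraries, and 0 in each BMP4 library. It was not detectable above the limit of 3 fragments in any library, and no fold is given. On chromosome 13 it has close neighbours: Ccno lies at chr13:113124315-113127312 and Mcidas 3016 bases further on at chr13:113130328-113136928, both on the plus strand, and Cdc20b, a further gene of multiciliated cells, follows 34704 bases beyond. Cdc20b had no fragment in any library, whereas Ccno was detected in all 9. The limit of 3 fragments covers counting error only.

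Trp73 (chr4:154140706-154224665, minus strand), the p53 relative that acts upstream of Foxj1 in multiciliated cells, had 10, 7 and 5 fragments in the bFGF/EGF libraries. It had 6, 5 and 6 in the bFGF/BMP4 libraries and 12, 6 and 5 in the BMP4 libraries. The groups overlapped, at mean levels of 0.0791, 0.0666 and 0.085 FPKM. In a fit without the filter on low values, over 30860 genes, the log2 difference between BMP4- and bFGF/BMP4-treated NSCs was 0.13 with a 95% interval of -0.44 to 0.69 (limma, adjusted p = 0.821). The pseudocount of 0.1 FPKM lies above these mean levels, so this interval understates the range of folds that remain possible.

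The partners of the geminin relatives were present at the RNA level in every group. E2f5 was at 9.9 FPKM ± 0.984 (SD, n = 3), 9.54 ± 0.0422 and 10.3 ± 0.998 in the control, bFGF/BMP4 and BMP4 groups and passed no comparison. E2f4 was at 20.5, 11.3 and 9.87 FPKM and fell in BMP4-treated compared with bFGF/EGF-treated NSCs, by 1.04 on the log2 scale. Tfdp1 was at 84.8, 19.5 and 16.3 FPKM and fell in both comparisons with the bFGF/EGF-treated NSCs, whereas its relative Tfdp2, at 5.41, 6.92 and 5.67 FPKM, passed none. Geminin itself (Gmnn), which blocks the licensing factor Cdt1 in dividing cells and binds its own relatives, was at 16.2, 4.91 and 2.61 FPKM, and Cdt1 at 29.3, 4.2 and 1.69. Both fell in both comparisons with bFGF/EGF-treated NSCs, and Cdt1 also fell in BMP4- compared with bFGF/BMP4-treated NSCs, by 1.22 on the log2 scale (limma, adjusted p = 0.014). Of the 6 partners tested, none rose in any comparison. Against the control 3 fell with bFGF/BMP4, where 14.1% of all genes tested fell, and 4 fell with BMP4, where 15.4% did. With BMP4 compared with bFGF/BMP4, 1 fell, where 5.14% of all genes did.

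Myb (chr10:21000834-21036883, minus strand), a factor of dividing progenitors that is also used during centriole amplification, was at 1.52, 1.23 and 0.874 FPKM in the control (bFGF/EGF) libraries. It was at 0.0906, 0.314 and 0.236 FPKM in the bFGF/BMP4 libraries and at 0.317, 0.318 and 0.251 in the BMP4 libraries. All 3 control libraries lay above all 6 BMP4-containing libraries. Myb fell by 2.10 on the log2 scale (SE 0.352, limma, adjusted p = 0.000743) in bFGF/BMP4-treated and by 1.70 (adjusted p = 0.00226) in BMP4-treated NSCs compared with bFGF/EGF-treated NSCs. The difference between the 2 day 6 groups was 0.40, with a 95% interval of -0.38 to 1.19 (adjusted p = 0.489). With a pseudocount of 1 in place of 0.1, Myb stayed under an adjusted p of 0.05 but no longer reached a fold of 2 in either comparison.

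Ccno, the cyclin of centriole amplification, was at 0.46, 0.941 and 0.399 FPKM in the control (bFGF/EGF) libraries, from 18 to 38 fragments. It was at 0.268, 0.179 and 0.319 FPKM in the bFGF/BMP4 libraries, from 7 to 12 fragments. In the BMP4 libraries it was at 0.916, 1.09 and 1.07 FPKM, from 38 to 45 fragments. The BMP4 libraries lay above all bFGF/BMP4 libraries, while 1 bFGF/EGF library reached into the BMP4 range. Ccno rose by 1.68 on the log2 scale (SE 0.329, 3.2-fold, limma, adjusted p = 0.00477) in BMP4- compared with bFGF/BMP4-treated NSCs. Compared with bFGF/EGF-treated NSCs it was 0.76 higher in BMP4-treated NSCs (adjusted p = 0.0759) and 0.92 lower in bFGF/BMP4-treated NSCs (adjusted p = 0.0416, 1.89-fold), neither of which passed the threshold. These last values depended on single libraries: without bFGF/EGF replicate 2 the first was 1.08 and passed, and without bFGF/EGF replicate 3 or bFGF/BMP4 replicate 3 the second was -1.12 or -1.05 and passed. The second also passed with quantile normalization (-1.17) and with limma-voom (-1.23). With a pseudocount of 1, the difference between BMP4- and bFGF/BMP4-treated NSCs was 0.69 (adjusted p = 0.00503) and under the fold threshold.

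Foxj1 (chr11:116221530-116226225, minus strand) was at 7.87, 10.8 and 6.13 FPKM in the control (bFGF/EGF) libraries and at 10.3, 9.44 and 10.4 in the bFGF/BMP4 libraries. In the BMP4 libraries it was at 61.2, 51.4 and 52.8 FPKM, from 2182 to 2608 fragments. The BMP4 libraries stood far above the other 6, which overlapped each other. Foxj1 was 6.76-fold higher in BMP4- than in bFGF/EGF-treated NSCs (log2 fold change 2.76, SE 0.182, limma, adjusted p = 1.3e-06) and 5.45-fold higher than in bFGF/BMP4-treated NSCs (2.45, adjusted p = 1.58e-05). Between bFGF/BMP4- and bFGF/EGF-treated NSCs the log2 difference was 0.31, with a 95% interval of -0.09 to 0.72 (adjusted p = 0.187). Its mean level was at or above that of 71.6% of the genes tested in the control, 75.6% with bFGF/BMP4 and 95.8% with BMP4. The next gene, Rnf157, lies 678 bases away on the same strand and was at 10.7, 7.32 and 5.42 FPKM in these groups, an order opposite to that of Foxj1.

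**Figure D2:**
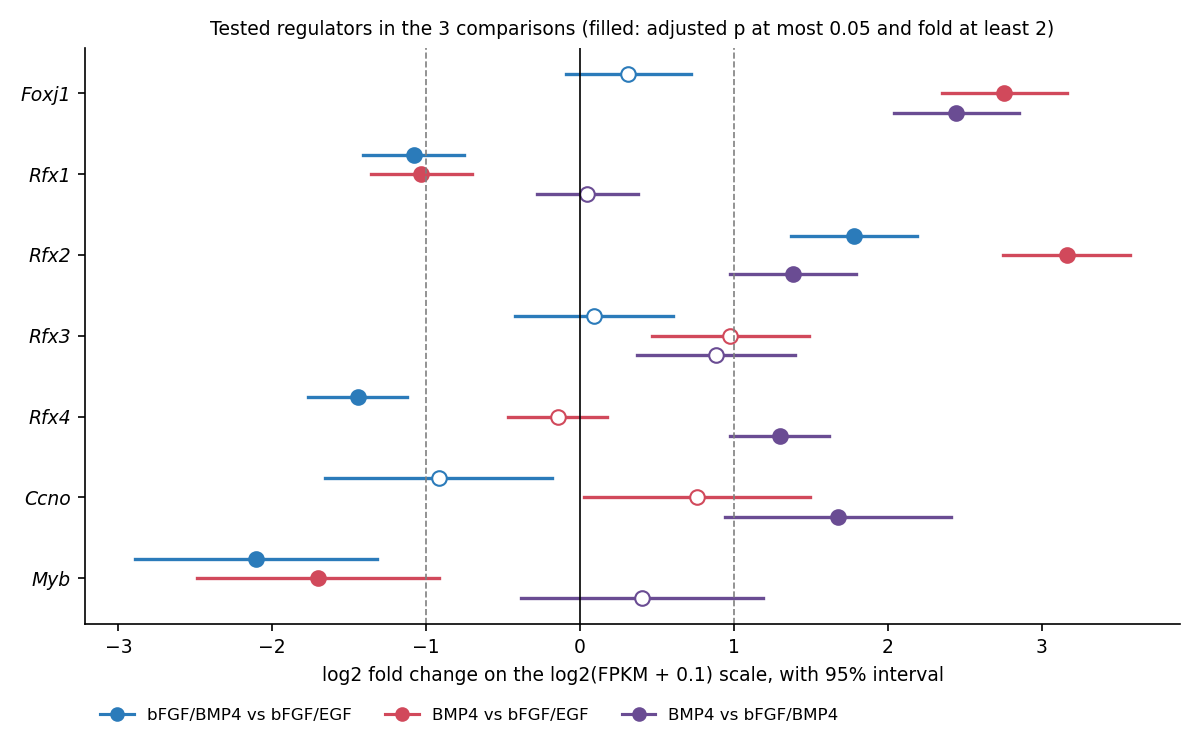
Log2 fold change of the 7 tested regulators in the 3 comparisons. Points are limma estimates on the log2(FPKM + 0.1) scale, lines are 95% intervals, dashed lines mark a fold of 2, and filled points passed the threshold. Rfx2 lies to the right of 0 in all 3 comparisons, and Foxj1 passes in both comparisons of BMP4-treated NSCs, at 2.76 and 2.45.

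Rfx2 (chr17:57081835-57138118, minus strand), an X-box factor that works with Foxj1 in multiciliated cells, was at 0.7, 0.761 and 0.581 FPKM in the control (bFGF/EGF) libraries. It was at 2.9, 2.47 and 2.36 FPKM in the bFGF/BMP4 libraries and at 7.64, 5.61 and 7.53 in the BMP4 libraries. No library of a group overlapped another group, and Rfx2 was the only member that passed in all 3 comparisons. It was 3.43-fold higher in bFGF/BMP4- than in bFGF/EGF-treated NSCs (log2 fold change 1.78, SE 0.184, limma, adjusted p = 3.4e-05). It was 2.61-fold higher again in BMP4-treated NSCs (1.38, adjusted p = 0.000484), which gave 8.96-fold between BMP4- and bFGF/EGF-treated NSCs (3.16, adjusted p = 6.13e-07). Between bFGF/BMP4-treated NSCs and the control its 95% interval was 1.37 to 2.19, beside -0.09 to 0.72 for Foxj1, and the difference between the genes was not tested.

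Rfx3 (chr19:27739121-27988566, minus strand), which is used for both primary and motile cilia, was at 4.49, 3.27 and 5.71 FPKM in the control (bFGF/EGF) libraries and at 5.35, 4.6 and 4.16 in the bFGF/BMP4 libraries. In the BMP4 libraries it was at 10.7, 6.67 and 9.27 FPKM, each above the other 6 libraries. The log2 difference was 0.98 from bFGF/EGF-treated NSCs (SE 0.23, 1.97-fold, limma, adjusted p = 0.00471) and 0.89 from bFGF/BMP4-treated NSCs (1.85-fold, adjusted p = 0.0204), so Rfx3 passed the adjusted p and missed the fold of 2 in both. The second adjusted p was over 0.05 on the TPM scale (limma, 0.0735), without BMP4 replicate 1 (0.0824) or 3 (0.0679) and without bFGF/BMP4 replicate 2 (0.0624) or 3 (0.0774). Without BMP4 replicate 2, the lowest of its group, these were 1.17 and 1.08 and passed, and without bFGF/EGF replicate 3 the first was 1.17 and passed. Between bFGF/BMP4- and bFGF/EGF-treated NSCs the difference was 0.09, with a 95% interval of -0.42 to 0.61.

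Rfx4 (chr10:84591896-84742404, plus strand), the RFX factor of neural progenitors and astrocytes, was the most abundant member in the bFGF/EGF libraries, at 33.6, 35.2 and 39.6 FPKM. It was at 10.6, 14.8 and 14.7 FPKM in the bFGF/BMP4 libraries and at 32.6, 30.7 and 34.5 in the BMP4 libraries. The bFGF/BMP4 libraries lay below the other 6. Rfx4 fell by 1.44 on the log2 scale (SE 0.144, limma, adjusted p = 2.65e-05) in bFGF/BMP4- compared with bFGF/EGF-treated NSCs and was 1.30 higher (adjusted p = 0.000158) in BMP4- than in bFGF/BMP4-treated NSCs. Between BMP4- and bFGF/EGF-treated NSCs the difference was -0.15, with a 95% interval of -0.47 to 0.17 (adjusted p = 0.418).

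Rfx1 (chr8:84793460-84823942, plus strand), the widely expressed member of the family, was at 5.44, 5.95 and 5.53 FPKM in the control (bFGF/EGF) libraries. It was at 3.03, 2.24 and 2.62 FPKM in the bFGF/BMP4 libraries and at 2.82, 2.55 and 2.74 in the BMP4 libraries. All 6 day 6 libraries lay below the control, and the day 6 groups overlapped. Rfx1 fell by 1.08 (SE 0.147, limma, adjusted p = 0.000195) and 1.03 (adjusted p = 0.000202) on the log2 scale in bFGF/BMP4- and BMP4-treated NSCs. Both lie near the fold of 2: without bFGF/BMP4 replicate 2 the first was -0.975, without bFGF/EGF replicate 2 the second was -0.995, without BMP4 replicate 2 it was -0.994, and none of these passed. With a pseudocount of 1 they were -0.876 and -0.842, and neither passed. Rfx1 overlaps Dcaf15 on the opposite strand, which was at 22, 10.7 and 9.11 FPKM in the same order of groups. Whether the counting used strand is not given in the sources used here, so fragments of Rfx1 and Dcaf15 cannot be told apart where they overlap.

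The make-up of the RFX genes was described by the share of each in their sum. Since FPKM is per length, levels can be set side by side: Rfx1 to Rfx4 summed to 46.9 FPKM ± 3.93 (SD, n = 3) in the control, 23.3 ± 1.22 with bFGF/BMP4 and 51.1 ± 4.85 with BMP4. Rfx4 made up 77% ± 0.959 of this sum in the control, 57.1% ± 7.58 with bFGF/BMP4 and 64% ± 3.4 with BMP4. Rfx2 made up 1.47% ± 0.297, 11.2% ± 1.86 and 13.5% ± 1.02, and Rfx3 9.5% ± 2, 20.3% ± 3.68 and 17.3% ± 2.65. The sums of the control and the BMP4 libraries overlapped, at 44.2 to 51.4 and 45.5 to 54 FPKM, while their Rfx2 shares did not, at 1.13% to 1.69% and 12.3% to 14.2%. With 3 libraries a group these shares were described and not tested.

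**Figure D3:**
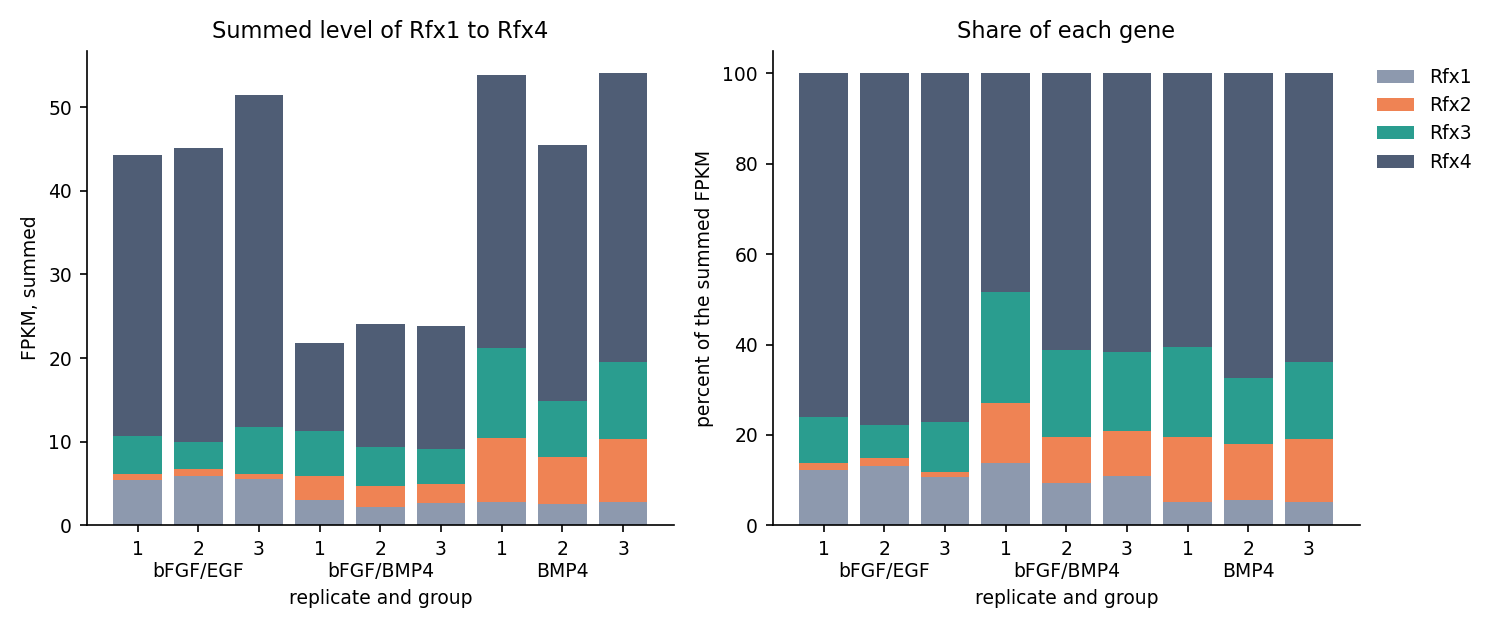
Summed level of Rfx1 to Rfx4 in each library in FPKM (left) and the share of each gene in that sum in percent (right). Bars are libraries, numbered by replicate within each group, and colours are genes. The bFGF/BMP4 bars are the lowest, near 23.3 FPKM, and the Rfx2 share widens from 1.47% in bFGF/EGF- to 13.5% in BMP4-treated NSCs.

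The order of levels differed by group. In the control it was Rfx4, Foxj1, Rfx1, Rfx3, Myb, Rfx2 and Ccno, where the libraries of Rfx1 and Rfx3 and those of Rfx2 and Ccno overlapped. In bFGF/BMP4-treated NSCs it was Rfx4, Foxj1, Rfx3, Rfx1, Rfx2, Ccno and Myb, where Rfx1 and Rfx2 overlapped, as did Ccno and Myb. In BMP4-treated NSCs it was Foxj1, Rfx4, Rfx3, Rfx2, Rfx1, Ccno and Myb, where Rfx3 and Rfx2 overlapped. The other neighbours in these orders did not overlap. Foxj1 stood below Rfx4 in both groups with bFGF and above it with BMP4 alone.

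The relatives of the members moved in different directions. Of the other RFX genes, Rfx6 had no fragment in any library, Rfx8 was near 0, and Rfx5 (3.23, 5.26 and 3.38 FPKM in the control, bFGF/BMP4 and BMP4 groups), Rfxap (11.8, 16.3 and 14.8) and Rfx7 (7.3, 4.14 and 3.96) did not pass the threshold. Rfxank, a subunit of the RFX complex of MHC class II genes, was at 2.66 FPKM ± 0.13 (SD, n = 3), 21.6 ± 4.19 and 6.63 ± 1.98, and rose in both comparisons with the control and fell by 1.71 on the log2 scale in BMP4- compared with bFGF/BMP4-treated NSCs (limma, adjusted p = 0.000302). Foxj2 (4.59, 8.96 and 8.07 FPKM) and Foxj3 (5.17, 5.76 and 5.84) did not pass, and Foxn4, a forkhead factor of multiciliated cells, had 0 fragments in the other groups and 3 over the BMP4 libraries, 1 in each, which is below the limit of 3 in a library. Mybl2, the cell cycle relative of Myb, was at 12.5, 1.82 and 0.609 FPKM and fell in all 3 comparisons, whereas Mybl1, at 9.23, 6.24 and 8.07, passed none. Trp53 was at 29.5, 10.1 and 10.1 FPKM and fell in both comparisons with the control. Trp63 was at 0.00502, 0.0638 and 0.258 FPKM, with the control under the limit of 3 fragments. It passed the filter on low values through the BMP4 libraries alone, so neither a fold nor a test is given for Trp63.

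Deuterosomes are the bodies on which multiciliated cells make extra centrioles. Deup1, which builds them, had no fragment in any of the 9 libraries, and Cdc20b and Noto, a factor of ciliated node cells, had none either. Jhy had at most 0.00614 FPKM as a group mean. Of the other genes fixed with them, Six3 was at 9.59, 18.2 and 13.9 FPKM in the control, bFGF/BMP4 and BMP4 groups, Cdkn1a at 134, 101 and 144, and Traf3ip1 at 4.38, 3.83 and 4.02, and none of these passed. Ank3, an ankyrin of the lateral membrane of ependymal cells and their progenitors, was at 2.62, 1.59 and 0.324 FPKM and fell by 2.73 and 2.05 on the log2 scale in BMP4-treated NSCs compared with the control and with bFGF/BMP4-treated NSCs.

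Of 20 genes of centriole duplication and amplification, all tested, 1 rose and 6 fell in bFGF/BMP4- and 1 rose and 7 fell in BMP4-treated NSCs compared with the control, and 1 rose and 3 fell in BMP4- compared with bFGF/BMP4-treated NSCs. Of all genes tested, 16.5% rose and 14.1% fell, 21.3% rose and 15.4% fell, and 8.41% rose and 5.14% fell in the same order. In the last comparison 1 rose and none fell with a pseudocount of 1, and 3 rose and 3 fell with no fold threshold. Of all 20207 genes tested, 890 rose and 559 fell at the first setting, and 2474 rose and 1797 fell at the second. The gene that rose in each was Cetn4, a centrin, at 0.324, 0.871 and 2.85 FPKM (chosen after its values were seen). Plk4, the kinase that starts centriole duplication, was at 6.36 FPKM ± 2.5 (SD, n = 3), 1.44 ± 0.538 and 0.394 ± 0.137, and Stil, which works with it, at 8.18 ± 3.25, 1.45 ± 0.379 and 0.402 ± 0.0327. Both fell in all 3 comparisons. The median log2 fold changes of the list were -0.51, -0.87 and -0.22, beside 0.06, 0.10 and 0 over all genes tested. The first count depended on single libraries: it was 4 in place of 7 without bFGF/EGF replicate 1 and 3 without bFGF/BMP4 replicate 1. Of all genes tested, 3103 of 20276 rose and 2643 fell without the former library, and 3127 of 20151 rose and 2692 fell without the latter.

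Of 74 motile cilia genes listed, 51 were tested and 23 were too low. The filter takes the mean over all 9 libraries, and 10 of the 51 had a mean under 0.1 FPKM in both other groups and passed through the BMP4 libraries alone. Others, such as Drc1, were under 0.1 FPKM in 1 of these groups and passed mainly through the BMP4 libraries. The counts and medians of this list therefore describe the genes tested and not all that are listed. In bFGF/BMP4- compared with bFGF/EGF-treated NSCs 13 rose and 3 fell, in BMP4- compared with bFGF/EGF-treated NSCs 37 rose and 1 fell, and in BMP4- compared with bFGF/BMP4-treated NSCs 26 rose and none fell. Of all genes tested 16.5%, 21.3% and 8.41% rose in the same order. The median log2 fold changes were 0.24, 1.88 and 1.31, beside 0.06, 0.10 and 0 over all genes tested. Nme5, listed under axoneme assembly and motility, was at 0.47 FPKM ± 0.23 (SD, n = 3), 0.913 ± 0.286 and 9.76 ± 1.55 in the 3 groups. Drc1, of the nexin-dynein regulatory complex, was at 0.157, 0.0405 and 2.27 FPKM, and Dnali1, an inner arm dynein chain, at 0.0364, 0.0717 and 2.09. Dnali1 is among the genes that passed the filter through the BMP4 libraries alone. The dynein heavy chain Dnah9 already rose in bFGF/BMP4-treated NSCs, at 0.0294, 0.529 and 3.18 FPKM, as did Dnah7b, at 0.115, 1.12 and 1.13. By part of the axoneme, 7 of 11 listed genes of the nexin-dynein regulatory complex, 6 of 9 of the radial spoke, 4 of 10 of the central pair and 6 of 20 of the dynein arms rose in BMP4- compared with bFGF/EGF-treated NSCs, and of 10 for dynein assembly 3 rose and 1 fell. In BMP4- compared with bFGF/BMP4-treated NSCs 4, 4, 4, 3 and 2 of them rose in the same order and none fell. Of those listed, 8, 7, 6, 9 and 8 were tested in this order. Of 10 genes of axoneme assembly and motility 9 were tested, and 7 rose in each of these comparisons. All 4 motile cilium kinesins were tested, and 4 rose compared with bFGF/EGF- and 2 compared with bFGF/BMP4-treated NSCs. The summed level of all 74 was 124 to 136 FPKM in the BMP4 libraries, 62.2 to 66 in the bFGF/BMP4 libraries and 52.2 to 57.9 in the bFGF/EGF libraries. With a pseudocount of 1 the counts of genes past the threshold were 2, 15 and 12 in the order of comparisons above, and with a mean of at least 1 FPKM they were 9, 14 and 8 of 21 tested. Of all 20207 genes tested with that pseudocount, 1723 rose and 1821 fell, 2326 rose and 2038 fell, and 890 rose and 559 fell. Of the 12947 genes with that mean, 2259 rose and 2128 fell, 2649 rose and 2340 fell, and 1012 rose and 788 fell.

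Of 70 primary cilia genes, 69 were tested. In the same order of comparisons 5 rose and 3 fell, 17 rose and none fell, and 6 rose and 2 fell, with median log2 fold changes of 0.14, 0.45 and 0.46. Of all genes tested 16.5%, 21.3% and 8.41% rose and 14.1%, 15.4% and 5.14% fell. The 5, 17 and 6 of 69 that rose are a share below the first of these and near the next 2. The shares that fell were below those of all genes in each comparison. Medians over all genes tested were 0.06, 0.10 and 0. With no fold threshold 19 rose and 12 fell, 30 rose and 6 fell, and 24 rose and 3 fell. At this setting 5058 rose and 4761 fell, 5991 rose and 5105 fell, and 2474 rose and 1797 fell of all 20207 genes. Gli3, a factor of Hedgehog signalling, was at 0.792, 6.84 and 1.93 FPKM, highest with bFGF/BMP4. Ift70b, of the intraflagellar transport machinery, was at 2.54, 5.73 and 15.4 FPKM, and Bbs4, of the BBSome, at 1.09, 2.52 and 4.07. Rpgr, of the connecting cilium, was at 1.03, 1.13 and 3.73 FPKM.

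**Figure D4:**
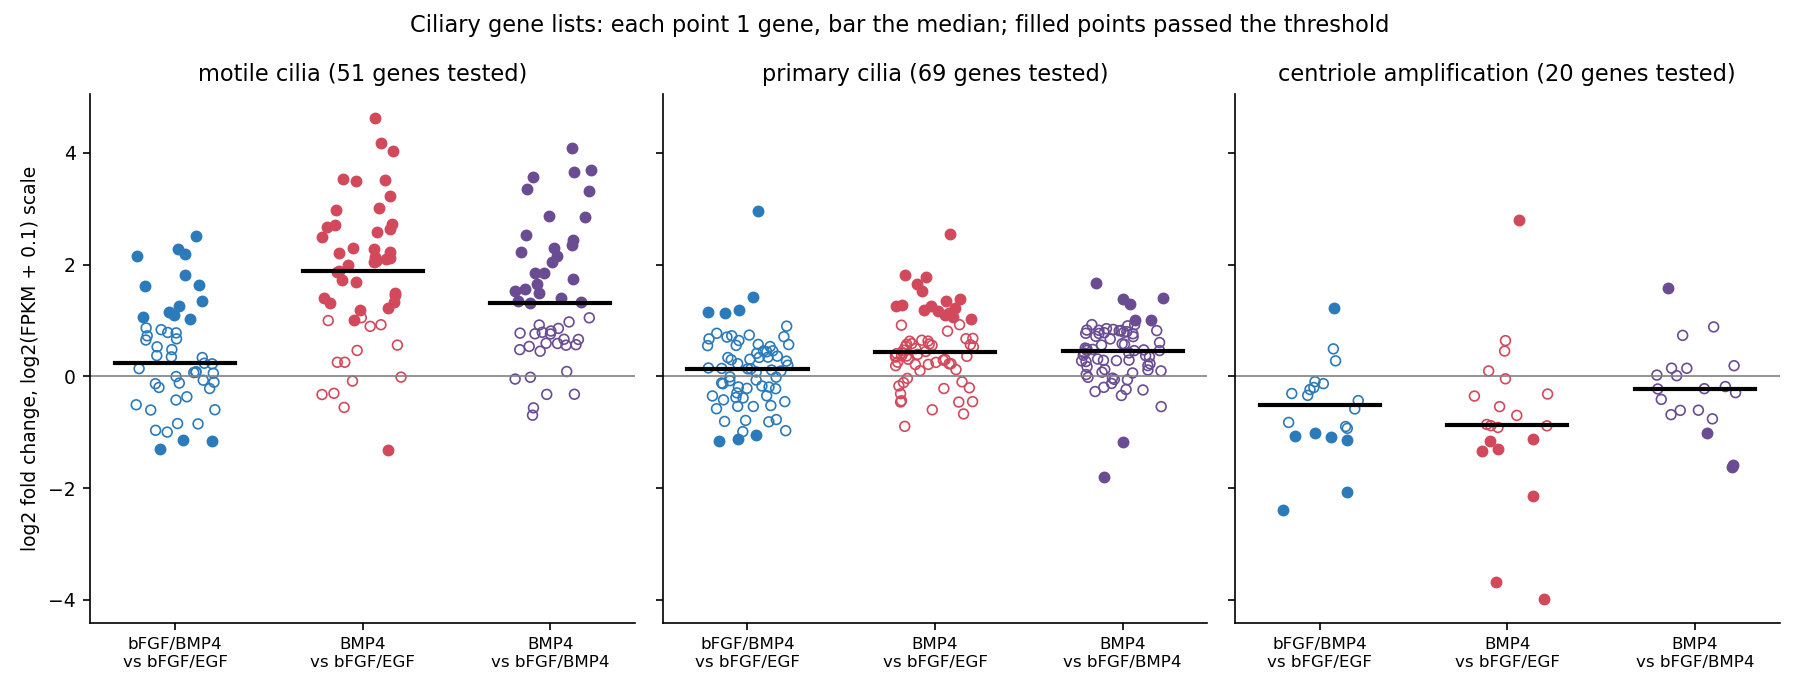
Log2 fold change of the tested genes of 3 lists in the 3 comparisons, on the log2(FPKM + 0.1) scale. Each point is a gene, filled where it passed the threshold, and the black bar is the median of the list. Genes under the filter on low values are not drawn. Of the 51 motile cilia genes drawn, 10 passed this filter through the BMP4 libraries alone, so the medians of that list describe only the genes drawn. The motile cilia medians are 0.24, 1.88 and 1.31, the primary cilia medians stay under 0.5, and the centriole medians lie below 0.

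Of 10 markers of ependymal cells that are no members, 7 were tested. Of these, 1 had a mean under 0.1 FPKM in both other groups and passed the filter through the BMP4 libraries alone. Hdc, at 0.00932 and 0.174 FPKM in the bFGF/EGF and bFGF/BMP4 groups, passed mainly through them. In BMP4-treated NSCs 7 of the 10 rose in both comparisons, where 21.3% and 8.41% of all genes tested rose. In bFGF/BMP4- compared with bFGF/EGF-treated NSCs 1 rose and 2 fell, where 16.5% rose and 14.1% fell. The summed level of all 10 was 2.92 to 4.9 FPKM in the control (bFGF/EGF) libraries, 2.63 to 3.63 in the bFGF/BMP4 libraries and 21.7 to 35.8 in the BMP4 libraries. Of the mean sum of 29.6 FPKM in BMP4-treated NSCs, Pltp alone was at 15. The other tested markers were lower there: Dynlrb2 at 5.05, Hdc at 3.36, Rarres2 at 2.53, Cfap126 at 1.68, Enkur at 1.29 and Ccdc153 at 0.653. Tmem212 was at 0 in all libraries and Mia in the BMP4 libraries, and Ak7 was at 0.0341 FPKM in BMP4-treated NSCs. Of 8 choroid plexus markers, 3 were tested, and the list summed to 0.662 to 0.855, 0.647 to 1.26 and 4.54 to 6.47 FPKM, with Folr1, at 4.52 FPKM in BMP4-treated NSCs, making up most of the last range, while Kl was at 0 there and Ttr at 0.312. The part of such cells in the results for Foxj1, Rfx2, Ccno and the motile cilia genes was not tested. The markers of neurons and neuroblasts summed to 73.8 to 87.8, 46.6 to 51.5 and 139 to 208 FPKM in the same groups, those of the oligodendrocyte lineage to 12.2 to 17.2, 9.39 to 11 and 24.6 to 30.7, those of microglia to at most 1.75 and those of endothelial and mural cells to at most 5.41.

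Genes with the pattern most like each member were found by the root mean square difference of centred log2(FPKM + 0.1) values over the 9 libraries, among 11212 other protein-coding genes with a mean of at least 1 FPKM. Nearest to Foxj1 were Synm (a difference of 0.233), Sod3 (0.238) and Prnp (0.243), and Prnp, for example, was at 77.4, 109 and 455 FPKM. Nearest to Rfx2 were Tbc1d2b (0.13), Gm973 (0.158) and Il6st (0.162), with Il6st at 8.54, 28 and 66.7 FPKM. Nearest to Rfx4 were Mycn (0.147), Lonrf1 (0.159) and Cers6 (0.182), with Mycn at 4.17, 1.58 and 4 FPKM. Nearest to Rfx1 were Ncoa5 (0.079), Lsm14b (0.083) and Ccar2 (0.089), and among the nearest to Rfx3 were Dclre1c (0.134) and Zfp462 (0.175). None of these was a member or a gene of the ciliary lists. Because of the minimum of 1 FPKM, most of the motile cilia genes and the members Ccno, Myb, Gmnc, Mcidas and Trp73 could not be found.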

How the data were processed

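The table holds RNA-seq values of 9 mouse NSC libraries, 3 for each medium. According to the submitters' processing notes, the tools included fastp 0.19.7, HISAT2 2.0.5 and featureCounts 1.5.0-p3, with the build mm39. The authors deposited FPKM values. The annotation release, the strand setting and the program that computed FPKM are not given in the sources used here.

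Whole fragment numbers were recovered from the FPKM values for 30780 of 30860 genes above 0 (99.74%, within 0.01 of a whole number beside rounding). The constant by which each library had been divided was 0.919 to 1.072 times its fragments. Genes with a mean of at least 0.1 FPKM (20207) were fitted with limma 3.58.1 in R 4.3.3, with a trend, on log2(FPKM + 0.1) and all libraries. This understates the change of low genes. Genes were called at an adjusted p of up to 0.05 together with a change of 2-fold or more. The authors used DESeq2 on counts. The count table of their supplement was not used here, and the deposited FPKM values were tested with limma in its place. The fit was tested on simulated data. Coordinates and promoters were taken from GENCODE vM39 (GRCm39), where 54749 of the identifiers were found and 955 were not. The other steps ran in Python 3.11.15 (pandas 2.3.3, with numpy 2.4.6; plots by matplotlib 3.10.9).

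The members, the gene lists and the tests were chosen with earlier results of these data known, and the lists come from general knowledge of the genes. Named were all members, all genes of the lists of relatives, partners and deuterosome genes, the 2 genes with the largest change among those past the threshold in each ciliary list and comparison, and the 3 genes most like each member with a mean of at least 1 FPKM. Of the genes this rule gives, 2 are not reported here. The marker genes named were chosen after their values were seen, as were the neighbours. Alternatives changed the pseudocount (1), the filter (none, or a mean of at least 1 FPKM), the scaling (TPM, quantile or median-ratio), the model (limma-voom on the recovered fragments, a replicate block, or a fit of only the 2 groups compared) and the thresholds, and left out each library in turn.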

Additional observations from a re-analysis of the deposited data

How the results depend on the processing

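The log2 fold changes of the 7 tested members were recomputed under the alternatives, which gave 372 values. In 350 they kept their direction and their side of the threshold, in 8 they lost and in 8 they gained the call, and in 6 they changed sign. The sign changed only for uncalled values near 0: Rfx1 between BMP4 and bFGF/BMP4 was -0.023 on the TPM scale, -0.016 with quantile normalization and -0.059 to 0.151 with a library left out, and Rfx3 between bFGF/BMP4 and bFGF/EGF was -0.021 with limma-voom and -0.112 to 0.28 with a library left out. The calls of Foxj1, Rfx2 and Rfx4 were the same under all alternatives that were run.

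In the order bFGF/BMP4 against bFGF/EGF, BMP4 against bFGF/EGF and BMP4 against bFGF/BMP4, a pseudocount of 1 left 2, 2 and 3 members, 2, 15 and 12 motile cilia genes, 1, 9 and 5 primary cilia genes and 3, 5 and 1 centriole genes past the threshold, because it shrinks the change of low genes. Of all 20207 genes tested with this pseudocount, 1723 rose and 1821 fell, 2326 rose and 2038 fell, and 890 rose and 559 fell. With a mean of at least 1 FPKM, Ccno and Myb could not be tested. At that filter 9, 14 and 8 motile cilia genes passed of 21 tested. Of the 12947 genes left by it, 2259 rose and 2128 fell, 2649 rose and 2340 fell, and 1012 rose and 788 fell. With no fold threshold, 31, 36 and 27 of 69 primary cilia genes passed, of which 19, 30 and 24 rose. Of 20 centriole genes, 11 and 14 passed in the comparisons with bFGF/EGF, of which 2 and 2 rose. At this setting 5058 rose and 4761 fell, 5991 rose and 5105 fell, and 2474 rose and 1797 fell of all 20207 genes tested. With a library left out, the centriole count of bFGF/BMP4 against bFGF/EGF ranged from 3 to 8. Quantile normalization moved the median log2 difference of all genes between BMP4 and bFGF/EGF from 0.10 to -0.035.

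A replicate block left 4, 4 and 4 of the 7 tested members past the threshold and changed no call of a member. Of all 20207 genes tested with it, 3284 rose and 2843 fell, 4282 rose and 3101 fell, and 1616 rose and 996 fell. The labels do not say whether the replicate numbers pair the samples. Deviations of same-numbered libraries from their group means correlated at -0.084 to 0.125 between groups, and 1 of 9 pairs was above 0.1. Those of libraries with other numbers correlated at -0.154 to 0.081, and these values do not settle whether the samples were paired.

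Depth limits the 3 members with at most 12 fragments a library, and Ccno with 7 to 45. With 3 libraries a group, differences within the intervals given remain possible. Culture time and medium cannot be told apart in differences from the control.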
